A study of Mus musculus with 6 samples.

Results

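The nuclei described here were selected as hormone-sensing luminal nuclei of the mammary gland that lies within inguinal subcutaneous adipose tissue (SAT). They were chosen by their own UMI counts (unique molecular identifiers, 1 per captured RNA molecule). In a SAT library, a nucleus had to have more than 500 genes detected and more than 1000 UMIs, of which mitochondrial genes gave less than 15%. It also had to hold at least 1 UMI of the epithelial genes Epcam, Cdh1, Ehf, Esrp1 and Grhl2, and at least 3 UMIs of the hormone genes Areg, Prlr and Pgr. The hormone genes had to outnumber the secretory luminal genes Csn3, Kit, Ltf, Wfdc18 and Elf5, and at most 1 UMI was allowed from Ptprc, Skap1, Ptprb, Pdgfra, Upk3b and Plin1, which mark other cells. The rule found 477 nuclei among the 17570 SAT nuclei that passed the depth filters, and 27074 nuclei passed them in all 6 libraries. They came from all 4 SAT libraries, with 178 and 95 nuclei at 2 months and 70 and 134 at 24 months.

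Female C57BL/6J mice, for which no transgene or treatment is named, gave the fat for all 6 single-nucleus RNA libraries. SAT had 2 libraries from mice aged 2 months and 2 from mice aged 24 months, and the other 2 libraries held the gonadal visceral depot (VAT) of 24-month-old mice. The labels give 24 months and the design text gives 26 months for the older mice, and the labels' age is used here. The labels name adipocytes as the cell type of every library and carry 1 date for all of them. The study's text names 2 mice per age, the labels do not say which library came from which mouse, and the stage of the estrous cycle is not given in the sources used here.

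A mammary duct has an inner layer of luminal cells and an outer layer of contractile basal cells. Hormone-sensing luminal cells carry the receptors for estrogen, progesterone and prolactin, while secretory luminal progenitors largely lack them and give rise to milk-producing cells. Hormone-sensing cells answer the ovary by releasing ligands such as amphiregulin (Areg), RANKL (Tnfsf11) and Wnt4, which act on neighbouring stromal, luminal and basal cells, and in rodents these ducts grow into the inguinal fat pad.

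Genes that the rule used are given as a description without a test. Levels are in CPM, the UMIs of a gene per 1000000 UMIs summed over the selected nuclei of a library. Areg, an EGF receptor ligand, was at 3197 and 4898 CPM at 2 months and 1658 and 3611 CPM at 24 months. Prlr, the prolactin receptor, was at 2414 and 1759 CPM at 2 months and 2856 and 2590 CPM at 24 months. Pgr, the progesterone receptor, was at 1876 and 1291 CPM at 2 months and 815 and 816 CPM at 24 months, so that both older libraries lay below both younger ones. Epcam, an epithelial adhesion molecule, ranged from 1092 to 1848 CPM, and Ehf, an epithelial transcription factor, from 46.0 to 103 CPM. In the secretory luminal nuclei, picked by the mirrored rule, Ehf was at 310 to 503 CPM.

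Markers of the class outside the rule bore on the label. Esr1, the estrogen receptor, held a UMI in 72.5% and 65.3% of the selected nuclei at 2 months and in 78.6% and 76.9% at 24 months. Foxa1, a pioneer factor for that receptor, was seen in 47.8% and 40% at 2 months and 67.1% and 61.9% at 24 months. Cited1, a coactivator of estrogen receptor signalling, was seen in 45.5% and 27.4% at 2 months and 65.7% and 70.9% at 24 months. RNA free in the suspension can add UMIs to any nucleus, so the same shares were taken in T cell and adipocyte nuclei. These had to hold no UMI of the 5 epithelial genes, so nuclei with free epithelial RNA were selected against and the shares may be too low as a background. There Foxa1 reached at most 1.26% and Cited1 at most 1.60% of nuclei, while Esr1 was in 4.49% to 6.30% of T cell nuclei and in 33.6% to 44.2% of adipocyte nuclei, a cell type that uses the gene. The selected nuclei were deeper, with medians of 3220.5 to 3488.5 UMIs against 1334 to 1619 for T cell and 1628 to 2103.5 for adipocyte nuclei. With every nucleus thinned to 1000 UMIs, Esr1 was in 40% to 47.8%, Foxa1 in 14.7% to 37.1% and Cited1 in 13.7% to 44.8% of the selected nuclei, while thinned T cell and adipocyte nuclei held Foxa1 in at most 0.84% and Cited1 in at most 1.08%. Thinned adipocyte nuclei held Esr1 in 19.1% to 30.6%, and thinned T cell nuclei in 1.60% to 4.46%.

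Of 12 hormone-sensing markers outside the rule, 11 were higher than in secretory luminal nuclei in all 4 libraries. The exception was Tnfsf11. Gata3, a luminal lineage transcription factor, was at 1322, 1264, 1299 and 1744 CPM in the 2-month and then the 24-month libraries, against 521 to 735 CPM in secretory luminal nuclei. Stc2, a secreted glycoprotein, was at 893 to 1820 CPM against 4.45 to 225 CPM. Of 12 luminal keratin and junction genes, 10 were higher, among them Krt18 (1151 to 1520 against 169 to 706 CPM) and Krt19 (1498 to 1755 against 209 to 721 CPM). Of 15 milk and secretory genes, 12 were lower than in secretory luminal nuclei in all 4 libraries, among them Aldh1a3 (23.5 to 61.6 against 303 to 350 CPM). The summed mesothelial markers reached at most 6.57 CPM and Pax8, a marker of the oviduct, was at 0 UMIs in every library. These values followed the label. No test was made, because the classes were cut from the same counts.

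**Figure D1:**
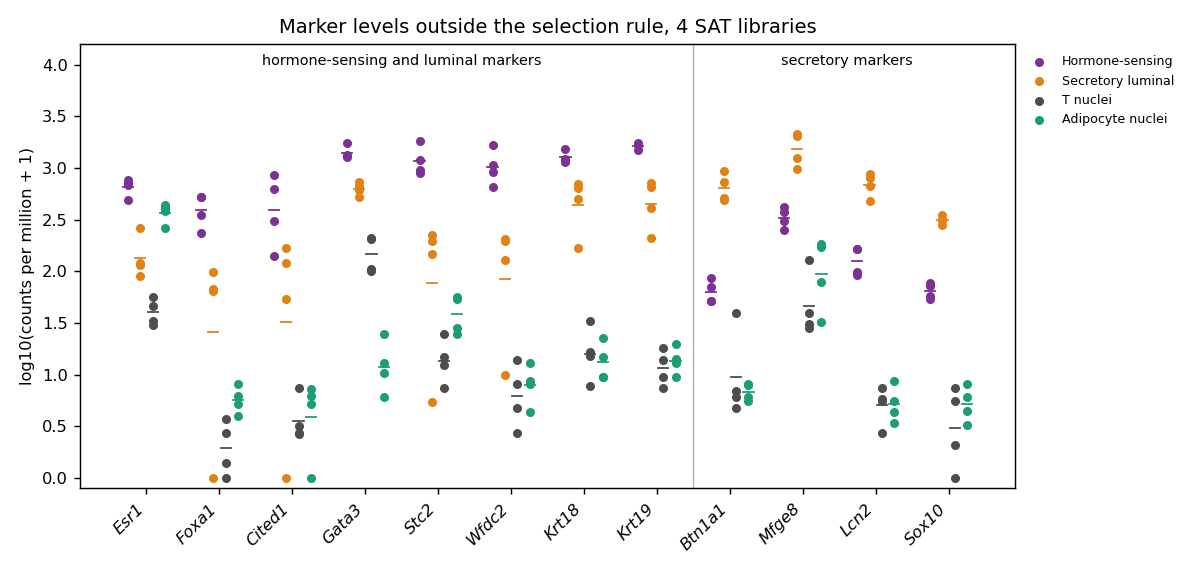
Marker genes outside the rule on the horizontal axis and their level as log10(CPM + 1) on the vertical axis, with 1 point per SAT library and a dash at the mean, for hormone-sensing, secretory luminal, T cell and adipocyte nuclei. Esr1, Foxa1 and Cited1, which the rule did not use, sit higher in the hormone-sensing nuclei than in the secretory luminal nuclei of every library.

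The nuclei varied among themselves. All 3 hormone genes were detected together in 77.0% and 76.8% of the nuclei at 2 months and in 40% and 57.5% at 24 months, and in 315 of 477 nuclei in all. The median number of hormone-gene UMIs was 23.5 and 23 per nucleus at 2 months and 16 and 22 at 24 months. Both measures use the genes that selected the nuclei and are given as a description. Pgr was detected in 400 nuclei, and 306 of these also held Esr1. Esr1 or Foxa1 was present in 79.2% and 72.6% of nuclei at 2 months and 91.4% and 89.6% at 24 months. Near the threshold, 10 of 22 nuclei with exactly 3 hormone-gene UMIs held Esr1 or Foxa1, while 3 of 18 nuclei with 2 such UMIs, just outside the rule, did. At least 3 UMIs of basal genes such as Krt5 and Acta2 were found in 18.5% and 17.9% of the nuclei at 2 months and in 2.86% and 9.70% at 24 months. At least 3 UMIs of the secretory gate were found in 31.4% to 42.1%. Scrublet, a doublet caller, marked none of the 477 nuclei, but it marked only 0.0519% to 0.562% of nuclei per library and did not work in these data, so nuclei captured with a neighbour may remain among them.

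The leading genes, ranked by their ratio to all other SAT nuclei and given as a description, began with Slc12a2, Slc7a2, Piezo2 and Nrxn3 and also held Krt19, Krt18 and Krt7. Slc12a2, a sodium-potassium-chloride cotransporter, was at 4279 and 4085 CPM at 2 months and 2688 and 4186 CPM at 24 months, with a mean of 3809 CPM against 215 CPM in all other nuclei. Slc7a2, a transporter of cationic amino acids, averaged 2365 against 118 CPM. Piezo2, a mechanically gated ion channel, averaged 1978 against 103 CPM, and Nrxn3, a neurexin of synaptic adhesion, 2792 against 169 CPM. Further genes of the first 20 were Ptn (pleiotrophin, a secreted growth factor), Wfdc2, Agtr1a (an angiotensin II receptor), Gpx3 (a secreted glutathione peroxidase) and Rasgrf1 (a Ras exchange factor). Against secretory luminal nuclei, Nrxn3 (222 CPM there), Piezo2 (133 CPM) and Slc7a2 (288 CPM) led again. Lower than in secretory luminal nuclei were Gpc6, a glypican, with a mean of 349 against 4877 CPM, and Erbb4, a neuregulin receptor, with 122 against 1681 CPM.

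The share of these nuclei was compared between ages to ask whether the luminal classes, as cut by the rule, kept their proportions. Among luminal nuclei of both classes, hormone-sensing nuclei made up 55.5% (exact 95% interval 49.8 to 61.0) and 44.2% (37.4 to 51.1) in the younger libraries, and 23.5% (18.8 to 28.7) and 29.5% (25.4 to 33.9) in the older ones. The ages did not overlap, and the means differed by -23.3 percentage points (24 minus 2 months). The exact two-sided permutation test gave p = 0.33, the smallest that 2 against 2 libraries allow. Among all nuclei of the epithelial gate they made up 37.2% (32.9 to 41.7) and 20.2% (16.6 to 24.1) in the younger libraries and 16.6% (13.2 to 20.5) and 20.5% (17.5 to 23.8) in the older ones, and here the ages overlapped. They did not overlap with a looser filter of over 300 genes and over 500 UMIs (28.2% and 18.0% against 11.2% and 14.3%) or with nuclei thinned to 1000 UMIs (35.6% and 21.4% against 14.2% and 19.4%). Among all kept SAT nuclei the share was 3.87% (3.33 to 4.47) and 1.64% (1.33 to 2.01) in the 2-month libraries and 2.81% (2.20 to 3.54) and 2.85% (2.39 to 3.36) in the 24-month libraries. That difference of 0.0692 points (exact permutation p = 1) turned to -1.05 points without the second 2-month library. Secretory luminal nuclei, the other part of the first ratio, numbered 143 and 120 at 2 months and 228 and 320 at 24 months. The intervals cover counting error only. Both classes were cut by the gate genes, and 1 of these, Pgr, was lower in both older libraries. How far such changes moved the shares was not tested. Without nuclei holding 3 or more UMIs of basal genes or of the other class's gate, the difference among luminal nuclei was -16.5 points. That setting was chosen after seeing the data.

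**Figure D2:**
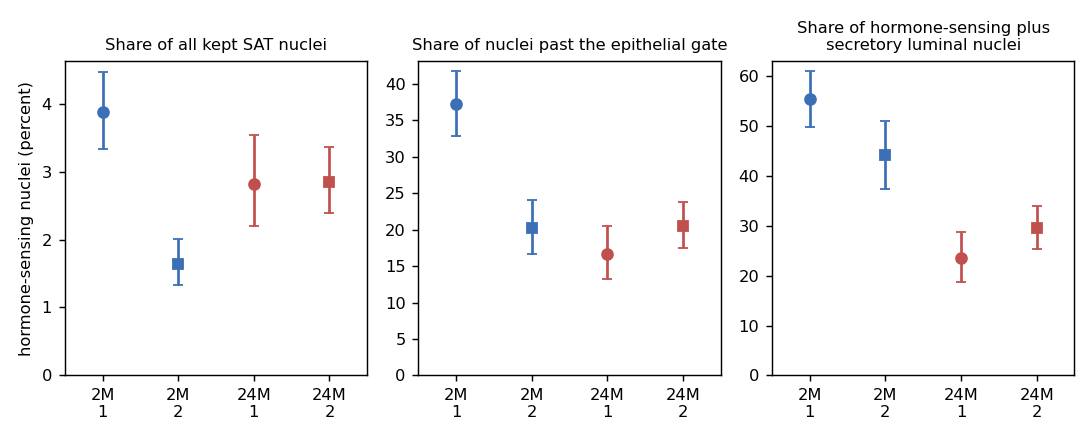
Share of hormone-sensing nuclei in percent, per SAT library, among all kept nuclei, among epithelial nuclei and among luminal nuclei of both classes, with exact 95% intervals as bars. Only among luminal nuclei do both 24-month libraries (23.5% and 29.5%) lie below both 2-month libraries (55.5% and 44.2%).

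To ask which genes differed with age within the class, UMIs were summed over the selected nuclei of each library, giving 870071 and 405854 UMIs at 2 months and 298003 and 608769 at 24 months. In an edgeR quasi-likelihood fit of 8923 genes, 382 (4.28%) passed an adjusted p of 0.05, of which 169 (1.89% of those tested) were higher and 213 (2.39%) lower at 24 months. Without the first 2-month library 250 genes were called, 209 of them among the 382, and without the second 147, 141 of them among the 382, and 82 of the 382 genes were called without each of the 4 libraries in turn. DESeq2 called 128 genes, all among the 382. The median mitochondrial share of the nuclei moved with age, from 4.97% and 5.28% to 7.72% and 6.31%, and 376 genes were called when mitochondrial genes were left out.

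Of 9 paracrine effectors, through which these cells act on their neighbours, 6 could be tested, 4 rose at 24 months (Tnfsf11, Wnt4, Calca and Wnt7b) and none fell, beside 1.89% of all genes tested that were higher and 2.39% that were lower. Their median log2 fold change was 1.75, against -0.000783 for all genes tested. The list was chosen with earlier results of these data known, so the count and the median are a description and not independent support. Areg, a ligand that the rule used, was not counted here, and its levels are given above without a test. RANKL, encoded by Tnfsf11, is the progesterone-driven ligand that makes neighbouring luminal cells divide. Its RNA gave 2 and 0 UMIs at 2 months and 13 and 42 UMIs at 24 months, or 2.30 and 0 CPM against 43.6 and 69.0 CPM. The ages did not overlap, the summed levels stood in a ratio of 38.7 (95% counting interval 10.2 to 328), and the log2 fold change was 5.02 ± 0.78 (SE, adjusted p = 1.36e-05). Without the second 24-month library the adjusted p was 0.106. Few nuclei carried it, namely 2 and 0 at 2 months and 4 and 15 at 24 months. T cell nuclei, which use the gene themselves, held a Tnfsf11 UMI in 3.23% to 5.13% of cases and adipocyte nuclei in 0% to 0.733%.

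Wnt4, a secreted Wnt ligand of progesterone-stimulated ducts, was at 177 and 153 CPM at 2 months and 379 and 723 CPM at 24 months. Both older libraries were above both younger ones, with a log2 fold change of 1.72 ± 0.30 (adjusted p = 1.00e-04), and the gene was called under all 17 alternatives. It was seen in 38.2% and 28.4% of the nuclei at 2 months and in 54.3% and 69.4% at 24 months, and in at most 0.962% of T cell or adipocyte nuclei. Wnt7b, another Wnt ligand, was at 27.6 and 17.2 CPM at 2 months and 63.8 and 98.6 CPM at 24 months (log2 1.79 ± 0.42, adjusted p = 0.00581). Its adjusted p was 0.119 without the second 2-month library and 0.164 without the second 24-month library. Wnt5a was at 77.0, 192, 117 and 177 CPM and did not pass the test (adjusted p = 0.89).

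Calca encodes calcitonin and the calcitonin gene-related peptide and is known to follow progesterone in some epithelia. It gave 0 UMIs in both 2-month libraries and 25 and 110 UMIs (83.9 and 181 CPM) in the 24-month libraries. The older level was at least 63.3-fold higher, taking 3 UMIs over the 2-month group as the floor (adjusted p = 4.82e-11). At 24 months 8 and 20 nuclei held the RNA (11.4% and 14.9%), up to 34 UMIs in 1 nucleus. Adipocyte nuclei held it in 0.420% to 1.23% and secretory luminal nuclei at 24 months in 2.19% and 0.625%. The gene lies on chromosome 7 at 114230712-114235592, minus strand, of GRCm39, and Gm71828 overlaps it on the same strand.

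Of the ligand genes that rose, Tnfsf11 lies on chromosome 14 at 78514885-78545490 (minus strand) and Wnt4 on chromosome 4 at 137004373-137027037 (plus strand). The 250 bases before the start sites of Tnfsf11, Wnt4 and Calca are printed here, 5′ to 3′ on the strand of the gene, because these promoters belong to ligand genes that rose together. They cover chr14:78545491-78545740 for Tnfsf11, chr4:137004123-137004372 for Wnt4 and chr7:114235593-114235842 for Calca, and come from the GRCm39 genome with the start of the canonical GENCODE transcript. Capitals mark the matches to the motifs searched.
Tnfsf11: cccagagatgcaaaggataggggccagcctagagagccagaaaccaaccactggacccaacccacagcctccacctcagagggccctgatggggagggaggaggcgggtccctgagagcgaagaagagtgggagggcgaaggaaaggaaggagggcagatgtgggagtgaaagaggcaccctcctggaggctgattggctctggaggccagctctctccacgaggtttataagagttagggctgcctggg
Wnt4: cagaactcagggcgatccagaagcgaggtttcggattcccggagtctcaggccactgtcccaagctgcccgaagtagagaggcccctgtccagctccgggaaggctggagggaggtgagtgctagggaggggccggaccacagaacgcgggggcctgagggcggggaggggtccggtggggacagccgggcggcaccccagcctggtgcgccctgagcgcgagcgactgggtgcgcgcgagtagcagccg
Calca: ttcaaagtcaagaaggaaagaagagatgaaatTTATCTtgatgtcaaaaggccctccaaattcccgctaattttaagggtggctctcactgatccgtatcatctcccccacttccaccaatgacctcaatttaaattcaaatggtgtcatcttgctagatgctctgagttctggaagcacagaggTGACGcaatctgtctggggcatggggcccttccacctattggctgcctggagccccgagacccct
The motifs, searched on both strands, were the estrogen response element GGTCANNNTGACC, the progesterone and glucocorticoid element GNACANNNTGTNC and its half-site AGAACA, the cyclic AMP element TGACGTCA and its half-site TGACG, the STAT element TTCNNNGAA, the forkhead motif TGTTTAC and the GATA motif AGATAA. In the order named, they occur in 0.0506%, 0.299%, 14.3%, 1.70%, 18.0%, 7.70%, 2.72% and 9.61% of 21757 windows of the same length. Calca held the half-site TGACG 65 bases before the start and the GATA motif, on the other strand, 218 bases before it. No match to any of these letters was found in the windows of Tnfsf11 or Wnt4. GC content was 60.8%, 70.4% and 48% for Tnfsf11, Wnt4 and Calca, against a median of 53.2% over all windows.

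Stat5a, Jak2 and Stat5b, which carry the prolactin signal, fell at 24 months, while the other tested genes of the pathway did not pass the test. Prolactin binds Prlr, the kinase Jak2 phosphorylates Stat5a and Stat5b, and these enter the nucleus as transcription factors. Of 10 genes of this pathway 9 were tested, 3 fell and none rose (2.39% and 1.89% over all genes), with a median of 0.12 over the list. Stat5a was at 1240 and 1114 CPM at 2 months and 107 and 217 CPM at 24 months, without overlap (log2 -2.84 ± 0.31, adjusted p = 4.24e-09), and was called under all 17 alternatives. It was detected in 84.3% and 85.3% of the nuclei at 2 months and in 34.3% and 45.5% at 24 months. In T cell nuclei the share was 8.97% to 10.7%, and in adipocyte nuclei it was 38.1% and 32.8% at 2 months and 14.7% and 20.4% at 24 months. Jak2 was at 353 and 476 CPM and then at 128 and 163 CPM (log2 -1.51 ± 0.30, adjusted p = 5.39e-04, and 0.0822 without the second 2-month library). Stat5b was at 301 and 269 CPM and then at 148 and 105 CPM (log2 -1.22 ± 0.30, adjusted p = 0.00905). The call on Stat5b was lost without either 2-month library or without the second 24-month library, with adjusted p between 0.0857 and 0.158. Stat5a and Stat5b are neighbours on chromosome 11, 8588 bases apart on opposite strands, and Stat5a overlaps Stat3 on the other strand, whose level did not pass the test (330, 256, 309 and 411 CPM). The feedback inhibitor Cish, a Stat5 target, was at 96.5 and 101 CPM at 2 months and 107 and 110 CPM at 24 months (adjusted p = 0.94), and Socs2 at 88.5, 131, 235 and 117 CPM (adjusted p = 0.361).

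**Figure D3:**
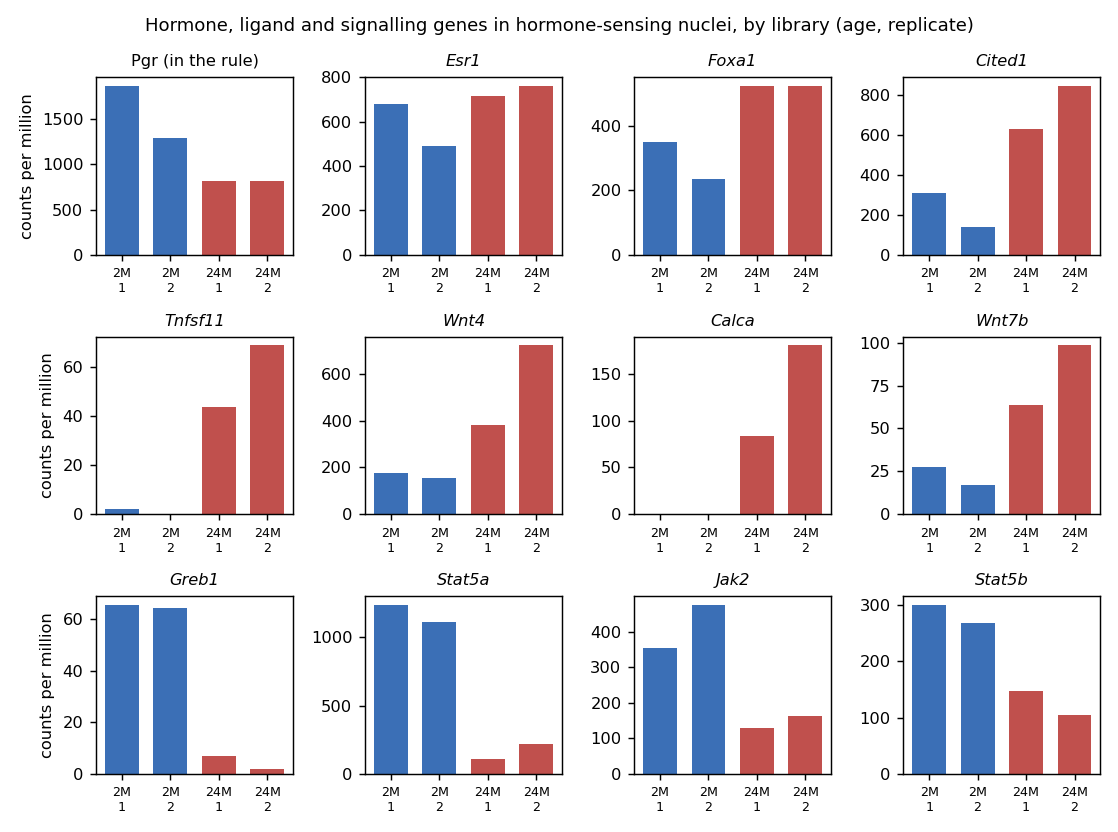
CPM in the hormone-sensing nuclei of each SAT library (1 bar per library, linear axes from 0, 2M and 24M for the ages) for 12 hormone, ligand and signalling genes, of which Pgr was in the rule. The 24-month bars of Wnt4 (379 and 723 CPM) are taller than the 2-month bars (177 and 153 CPM), while those of Stat5a (107 and 217 CPM) are shorter (1240 and 1114 CPM).

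Among genes known to respond to estrogen, 10 of 11 were tested, 1 fell and none rose (2.39% and 1.89% over all genes), and the median log2 fold change was -0.31, with 2 of 10 above 0. The gene that fell was Greb1, an estrogen-induced cofactor of the estrogen receptor. It gave 57 and 26 UMIs at 2 months and 2 and 1 at 24 months, or 65.5 and 64.1 CPM against 6.71 and 1.64 CPM. The ages did not overlap and the summed ratio of 2 to 24 months was 19.7 (95% counting interval 6.50 to 97.3), with a log2 fold change of -4.20 ± 0.69 (adjusted p = 2.95e-05). The 2-month UMIs came from 23 and 16 nuclei (12.9% and 16.8%), against at most 1.68% of T cell or adipocyte nuclei. Igfbp5, a binding protein of insulin-like growth factors, was at 813 and 892 CPM and then at 366 and 577 CPM (adjusted p = 0.0678), and Xbp1 was at 588, 574, 547 and 463 CPM (adjusted p = 0.809).

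Of 9 nuclear receptors 8 were tested, with a median of -0.04, and only Nr3c2, the mineralocorticoid receptor, was called, beside 4.28% of all genes. It was at 121 and 78.8 CPM at 2 months and 423 and 205 CPM at 24 months (log2 1.58 ± 0.33, adjusted p = 0.00109). In non-epithelial nuclei Nr3c2 averaged 64.2 and then 179 CPM, and the share of T cell nuclei with it went from 2.79% and 2.13% to 12.8% and 16.1%. Without the second 2-month or the first 24-month library its adjusted p was 0.118 and 0.11. Esr1 was at 680 and 490 CPM at 2 months and 715 and 762 CPM at 24 months (log2 0.31 ± 0.28, adjusted p = 0.70). None of 8 coregulators was called in either direction, Foxa1 among them at 351 and 237 CPM and then 523 and 526 CPM (log2 0.80 ± 0.28, adjusted p = 0.107). Of 9 receptors for RANKL and Wnt ligands, 7 were tested and none called, with a median of -0.24. Tnfrsf11a, the receptor of RANKL, was too low to test here (7.39 to 17.2 CPM) and stood at 61.0 to 125 CPM in secretory luminal nuclei.

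Of the 12 hormone-sensing markers, all tested, 3 rose and 1 fell (1.89% and 2.39% over all genes), with a median of 0.55, and Tnfsf11 and Wnt4 are 2 of the 3. The third was Cited1, at 308 and 140 CPM at 2 months and 628 and 846 CPM at 24 months (log2 1.67 ± 0.30, adjusted p = 1.78e-04, and 0.186 without the second 2-month library). Prom1, which encodes the surface protein CD133, fell from 179 and 323 CPM to 50.3 and 135 CPM (log2 -1.36 ± 0.34, adjusted p = 0.00963). That call was lost without the second 2-month library (0.529) or the first 24-month library (0.172). Of 12 luminal keratin and junction genes only Cd24a, a surface glycoprotein used to sort luminal cells, was called. It fell from 871 and 1133 CPM to 339 and 588 CPM (log2 -1.13 ± 0.29, adjusted p = 0.0124), and the adjusted p was 0.457 without the second 2-month library and 0.117 without the first 24-month library.

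Among 13 of 15 luminal transcription factors that were tested, 2 rose and 1 fell (1.89% and 2.39% over all genes), and the median was -0.13. Tfap2b was at 251 and 185 CPM at 2 months and 695 and 608 CPM at 24 months (log2 1.55 ± 0.29, adjusted p = 2.31e-04, and 0.106 without the second 2-month library). It was seen in 48.3% and 44.2% of nuclei at 2 months and in 84.3% and 73.9% at 24 months, and in at most 2.15% of T cell or adipocyte nuclei. Sox9, a progenitor-associated factor, was at 75.9 and 78.8 CPM and then at 158 and 205 CPM (log2 1.22 ± 0.31, adjusted p = 0.0114). Runx1 was at 553 and 503 CPM and then at 205 and 251 CPM (log2 -1.23 ± 0.29, adjusted p = 0.00477). In non-epithelial nuclei Runx1 averaged 381 CPM at 2 months and 198 CPM at 24 months. Sox9 was not called without either 2-month library or the second 24-month library (adjusted p of 0.0752 to 0.229), nor Runx1 without either 2-month library (0.0803 and 0.122).

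In further lists the counts stand beside 4.28% called over all genes tested. None of 8 tested EGF family genes (median 0.12), 9 tested milk and secretory genes (median -0.41), 8 tested basal genes (median -0.64, all 8 below 0) or 4 tested cell cycle and senescence genes (median -0.44) passed the test. Cdkn2a, the senescence-associated inhibitor, was too low to test, at 0 and 2.46 CPM at 2 months and 20.1 and 3.29 CPM at 24 months. Of 8 tested interferon and antigen presentation genes (median -0.30), 2 fell, beside 2.39% of all genes. H2-Ab1 fell from 110 and 140 CPM to 43.6 and 46.0 CPM and Cd74, the invariant chain, from 164 and 195 CPM to 43.6 and 57.5 CPM. Both are genes of antigen-presenting cells, and non-epithelial nuclei held Cd74 at a mean of 920 CPM at 2 months and 624 CPM at 24 months. The H2-Ab1 call was lost without the second 2-month library (adjusted p = 0.167). Of 8 tested immediate early genes (median -0.39), Klf4 fell from 63.2 and 81.3 CPM to 30.2 and 24.6 CPM (adjusted p = 0.0485), a call that was lost under 12 of 17 alternatives, among them the omission of either 2-month library or of the second 24-month library.

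The largest rises outside the gate genes, by the rule for named genes, included a pair of neighbours. Ache, acetylcholinesterase, gave 1 and 0 UMIs at 2 months and 33 and 52 at 24 months, with a ratio of 120 (95% counting interval 20.9 to 4779). Ufsp1, a protease that matures the ubiquitin-like protein UFM1, gave 3 and 2 UMIs and then 78 and 219, or 3.45 and 4.93 CPM against 262 and 360 CPM (log2 6.21 ± 0.47). Both genes lie on the plus strand of chromosome 5 with 163 bases between them, so reads that run past the end of Ache may be counted for Ufsp1, and Ufsp1 also overlaps Srrt on the other strand (234, 278, 232 and 237 CPM). At 24 months Ufsp1 was seen in 17.1% and 22.4% of the nuclei, against 2.63% and 3.13% of secretory luminal nuclei. At 2 months 0% of the secretory luminal nuclei held it, so it was higher with age there too. Stk32a, a kinase, gave 4 and 2 UMIs at 2 months and 35 and 68 UMIs at 24 months (log2 4.52 ± 0.52). Alox12e, an epidermal lipoxygenase, gave 0 UMIs in both 2-month libraries and 7 and 34 at 24 months, at least 19.2-fold higher, and was found in 24.1% and 10.3% of the secretory luminal nuclei of the same libraries. Further genes that rose by this rule were Gm12888, Gm379, Ctsr and the noncoding Gm45486, which overlaps Abcc8 on the other strand. Gm379 and Ctsr were called in no fit that left out a library. Gm379 was too low to test without the second 24-month library and Ctsr without either 24-month library. Gm45486 was not called without the first 24-month library, and Gm12888 and Alox12e were too low to test without the second.

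The largest falls were larger in counts. Dmbt1, a secreted mucosal scavenger glycoprotein, gave 265 and 150 UMIs (305 and 370 CPM) at 2 months and 0 in both 24-month libraries, at least 98.3-fold lower (adjusted p = 1.02e-14). Its 415 UMIs came from 58 nuclei. Cdcp3, which lies 52774 bases further on chromosome 7 on the same strand, gave 1599 and 528 UMIs at 2 months and 1 and 21 at 24 months, and its nuclei made up 49.4% and 44.2% at 2 months and 1.43% and 5.22% at 24 months. Both share their stretch of the chromosome with an annotation of Fgfr2 on the other strand, which did not pass the test (601, 724, 1070 and 1027 CPM, adjusted p = 0.231). A further pair on chromosome 7, Tmem86a and Ptpn5, 23005 bases apart on opposite strands, went from 324 and 404 to 2 and 8 UMIs and from 183 and 76 to 0 and 2 UMIs. Syn2, a synapsin of synaptic vesicles, was at 3054 and 2082 CPM at 2 months and 80.5 and 65.7 CPM at 24 months (log2 -5.18 ± 0.35, adjusted p = 1.50e-15). The gene on chromosome 6 spans Timp4 on the other strand, and it was seen in 75.8% and 73.7% and then in 20% and 20.9% of the nuclei, against at most 2.52% of T cell or adipocyte nuclei. Aoc1, a diamine oxidase, went from 122 and 377 CPM to 6.71 and 13.1 CPM. Clca1 went from 63.2 and 761 CPM to 30.2 and 14.8 CPM, with a wide spread between the 2-month libraries, and its call was lost without the second of them (adjusted p = 0.192). Grm8, whose call was lost in the same way, Greb1 and Gm13091, which was not called without the second 2-month or the second 24-month library, completed the 10. In non-epithelial nuclei Grm8 averaged 44.8 CPM at 2 months and 16.3 CPM at 24 months. Gm13091 averaged 14.9 and then 5.80 CPM in those nuclei.

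**Figure D4:**
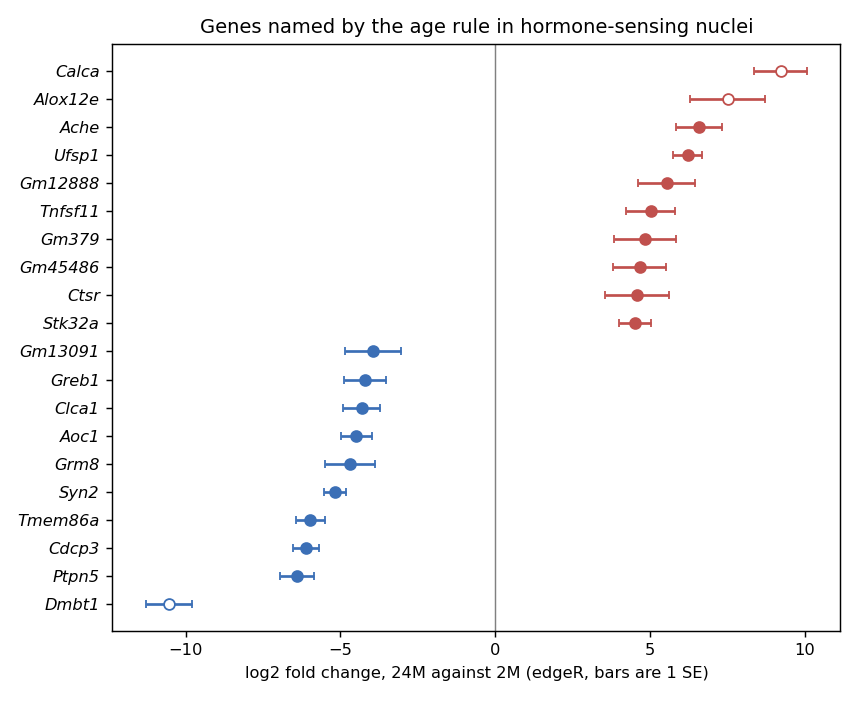
Log2 fold change of 24 against 2 months with its standard error for the genes named by the rule, in the hormone-sensing nuclei. Open circles mark genes at 0 UMIs in both libraries of an age, for which the fitted value depends on the prior count, and the filled points run from Ptpn5 (-6.40) to Ache (6.57).

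Of the first 20 leading genes of the class, 1 rose and 2 fell with age, beside 1.89% and 2.39% of all genes tested. Ttc6 was at 684 and 389 CPM at 2 months and 1450 and 728 CPM at 24 months (adjusted p = 0.0499). Cyp3a57, a cytochrome P450, was at 924 and 683 CPM and then at 544 and 243 CPM (log2 -1.07 ± 0.31, adjusted p = 0.0313). Gpx3 fell from 11574 and 15838 CPM to 2037 and 2295 CPM (log2 -2.69 ± 0.32, adjusted p = 2.43e-08), without overlap. The share of nuclei with Gpx3 went from 98.9% and 97.9% to 67.1% and 82.1%. In adipocyte nuclei it went from 80.4% and 79.8% to 26.3% and 37.7%, and the mean over non-epithelial nuclei was 525 CPM at 2 months and 262 CPM at 24 months.

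**Figure D5:**
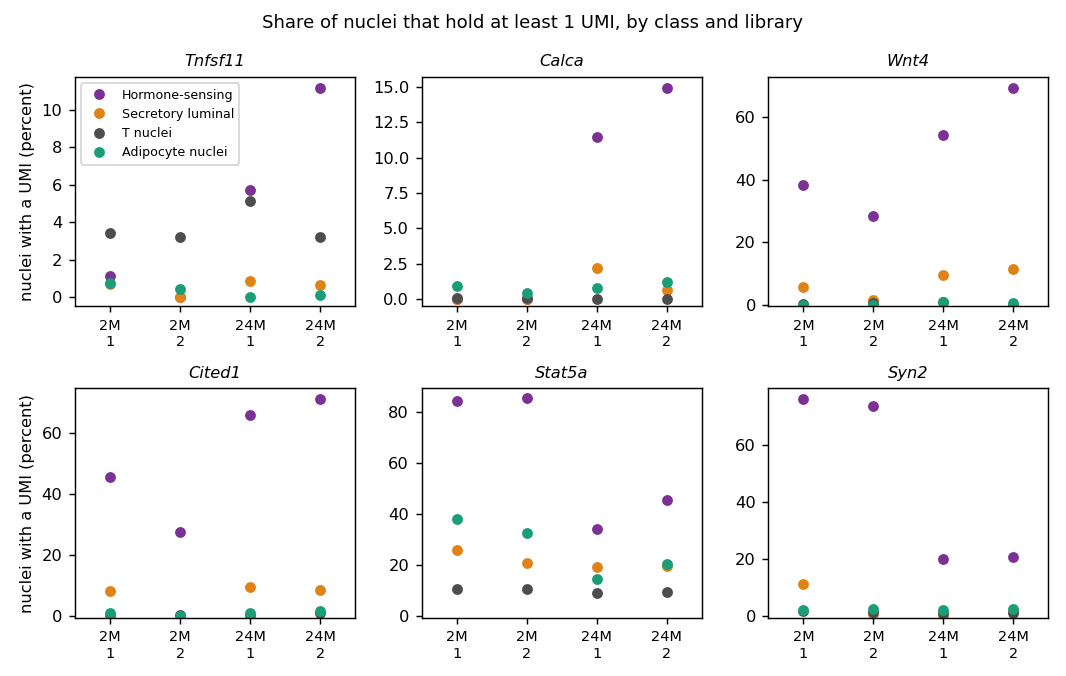
Percent of nuclei with at least 1 UMI of selected genes, per SAT library, in hormone-sensing, secretory luminal, T cell and adipocyte nuclei. Stat5a drops from 84.3% and 85.3% to 34.3% and 45.5% of hormone-sensing nuclei, while Wnt4 stands at 38.2% and 28.4% and then 54.3% and 69.4%.

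Some markers of other cells moved with age in the same nuclei, and their counts stand beside 1.89% higher and 2.39% lower over all genes tested. The 10 immune markers summed to 136 and 256 CPM at 2 months and 36.9 and 57.5 CPM at 24 months, with 0 and then 4 and 2 of them at 0, and both testable genes, Bank1 and Trbc2, fell. Without the second 2-month library neither was called (adjusted p = 0.432 and 0.695), nor was Bank1 without the second 24-month library (0.067). In non-epithelial nuclei Trbc2 averaged 437 CPM at 2 months and 69.6 CPM at 24 months. The 8 markers of fibro-adipogenic progenitors summed to 1144 and 1407 CPM and then 426 and 1068 CPM, and 4 of the 7 tested, Col1a1, Col1a2, Col3a1 and Col6a3, fell, with a median of -1.90 over the 7. Col3a1 was not called without the second 2-month or the first 24-month library (adjusted p = 0.381 and 0.195), nor Col1a1 without the first 2-month library (0.266). Col6a3 was found in 53.9% and 33.7% of hormone-sensing nuclei at 2 months, against 7.69% and 2.5% of secretory luminal and 4.21% and 2.94% of adipocyte nuclei. The 10 adipocyte markers summed to 909 and 707 CPM and then 265 and 1012 CPM. Their median log2 fold change was 0.44, with 4 of 7 tested above 0. Cfd alone was called, as lower, a call lost without the first 24-month library. Of 2 tested endothelial markers Vwf rose, from 86.2 and 78.8 CPM to 315 and 115 CPM (adjusted p = 0.0178, lost without the first 24-month library at 0.773 and without either 2-month library), and it was in 47.1% and 29.9% of hormone-sensing nuclei at 24 months against at most 1.83% of adipocyte nuclei. In non-epithelial nuclei Vwf averaged 11.5 CPM at 2 months and 31.1 CPM at 24 months, while in hormone-sensing nuclei Pecam1 stood at 23.0, 34.5, 10.1 and 19.7 CPM. Neither of 2 tested keratinocyte genes was called, and no mesothelial or ovary gene was high enough to test. The part of RNA from other cells in the age differences was not tested. When nuclei with any UMI of the other-cell gate were left out, 140 of 6702 genes were called, 136 of them among the 382.

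Whether these age differences were those of the secretory luminal nuclei was tested as an interaction in 1 edgeR model over both classes. None of 10146 genes passed an adjusted p of 0.05 (0% called), 1016 had an unadjusted p under 0.05, and the smallest adjusted p was 0.233. No other tool was run on this question. The count depended on single libraries, since 487 genes were called without the first and 16 without the second 2-month library. In secretory luminal nuclei alone 88 of 9238 genes were called, among them Wnt4 (22.3 and 8.90 CPM at 2 months and 99.2 and 116 CPM at 24 months, adjusted p = 0.0236). Of the other named genes, Cdcp3 fell there too, from 268 and 169 CPM to 4.25 and 20.3 CPM (adjusted p = 0.00277), as did Cd74 (0.0276) and Bank1 (0.0328), and Alox12e rose (0.00249). Ufsp1, Ache, Stk32a and Calca, too low there to test, were at 0 CPM in both 2-month libraries. At 24 months they stood there at 12.8 and 27.1, 8.50 and 10.2, 4.25 and 9.03, and 19.8 and 6.77 CPM. Tmem86a, also not tested there, went from 86.6 and 8.90 CPM to 4.25 and 4.52 CPM. Of the genes named by the age rule, Tnfsf11, Gm379, Gm45486 and Syn2 overlapped between the ages there. Jak2 stood there at 64.3 and 53.4 CPM at 2 months and 76.5 and 86.9 CPM at 24 months, and its age difference in hormone-sensing minus that in secretory luminal nuclei was -2.00 ± 0.42 on the log2 scale (adjusted p = 0.233). Stat5a was at 299 and 160 CPM and then 97.8 and 106 CPM in secretory luminal nuclei (adjusted p = 0.105). Its difference between the classes was -1.82 ± 0.45 (adjusted p = 0.233), and Tnfsf11, with 0 to 2.83 CPM in the secretory luminal nuclei of every library, gave 4.58 ± 2.59 (adjusted p = 0.611).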

How the data were processed

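Nuclei of adipose tissue were captured on a Singleron microfluidic chip per the study's methods, while the labels' description names another platform. With Celescope (version not given in the sources used here) and the GRCm39 build the authors turned reads into counts, and they deposited matrices of raw UMI counts per gene and nucleus, for barcodes with at least 500 UMIs. Whether counting used strand is not given in the sources used here, so overlapping genes are uncertain. The 6 libraries held 8061862 to 16226690 UMIs, and 2490 to 5776 SAT nuclei per library passed the filters. No barcode of a selected nucleus was shared with a selected nucleus of another library, and replicates differed by more than sampling noise (chi-square per degree of freedom of 2.97 and 3.23).

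UMI counts were summed per library over the selected nuclei, since nuclei are not replicates. edgeR 4.0.16 in R 4.3.3 fitted age groups to the 4 SAT libraries (TMM, filterByExpr, quasi-likelihood test, Benjamini-Hochberg adjustment), and called genes at an adjusted p under 0.05. It was tested on simulated data, with 100 genes changed by a log2 of 1 and 100 by a log2 of 2. The fit recovered 21% and 81% of these, with 5 false calls among 8556 genes, so many 2-fold changes would be missed. Each SE is the log2 fold change over the root of the F value. DESeq2 1.42.0 was an alternative. Secretory luminal nuclei followed the mirrored rule (at least 3 secretory UMIs and more than hormone UMIs). T cell nuclei held at least 2 Skap1 UMIs, 1 Ptprc UMI and no epithelial UMI, and adipocyte nuclei at least 3 UMIs of Plin1, Adipoq and Plin4 and none of the epithelial genes, Ptprc and Skap1. Scrublet in scanpy 1.11.5 marked too few nuclei to be relied on, so no doublets were removed. Sums and shares were computed in pandas 2.3.3, scipy 1.17.1 and numpy 2.4.6 under Python 3.11.15, and plots in matplotlib 3.10.9. Positions came from GENCODE release M39, in which 56236 of 56980 genes (98.7%) and all 43 named genes were found.

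Named genes were, per direction, the 10 largest fold changes among called genes outside the gates whose ages did not overlap and whose CPM was at least that of non-epithelial nuclei. To these came called members of 22 gene lists, and, as descriptions, the genes with the largest ratios to all other SAT nuclei (20) and to secretory luminal nuclei (15 per direction). The ratios used a prior of 50 CPM. The members and lists were chosen with earlier results of these data known. The VAT libraries entered no comparison. An exact permutation test of 2 against 2 libraries cannot go below p = 0.33. Alternatives changed the scaling, the filters, the gates, the tool and the libraries used.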

Additional observations from a re-analysis of the deposited data

Results flagged for a closer look

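The same rule was applied to the VAT libraries, which the comparisons did not use. In the second VAT library 33 of 5070 nuclei passed it (0.651%, exact 95% interval 0.448 to 0.913), above the floor of 0.0592% that 3 counts give. In the first VAT library 0 of 4434 did, which allows a share of up to 0.0677% by the same floor of 3 counts, or 0.0832% as the exact 95% upper limit. These 33 nuclei held 202 UMIs of Esr1 and 93 of Pgr, but 0 UMIs of Foxa1, Gata3 and Cited1. They held 43 UMIs of Pax8 in 14 nuclei and 123 UMIs of Ovgp1, the oviduct glycoprotein, in 17 nuclei, whereas Pax8 was at 0 UMIs in all hormone-sensing SAT nuclei. By these markers the label does not hold for them.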

How the results depend on the processing

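Leaving out 1 library at a time moved the share difference of 24 minus 2 months among all kept nuclei from -1.05 to 1.18 points, and it was -0.237 points with a looser filter (300 genes and 500 UMIs) and -0.245 points with nuclei thinned to 1000 UMIs. The share differences among epithelial and among luminal nuclei kept their sign under all alternatives run. The count of 382 called genes became 640 with the replicate block, 201 with a gate of Prlr and Pgr only, 242 with the looser filter, 140 with no UMI of other cells allowed, 130 without nuclei holding 3 or more basal or secretory UMIs (chosen after seeing the data), 128 with DESeq2, and 147 to 491 without 1 library. Among genes at least as high as in non-epithelial nuclei, 54.0% of calls were higher at 24 months against 44.2% of all calls. The interaction count of 0 became 141 without a filter on low counts and 0 to 487 without 1 library. The causes were not tested. The replicate number gave 1 correlation of deviations, 0.184 over 2000 genes. With 2 libraries per age, the second pair repeats the first and adds no value. The labels tie the number to no shared batch or day, so no pairing was assumed. Library size scaling moved the median over all genes from -0.000783 to 0.0177. Of 698 values of the 43 named genes under alternatives, 603 kept their call, 95 lost it and 0 changed sign, and 16 of the 43 genes were called without each library in turn. The depth, 70 to 178 nuclei and 298003 to 870071 UMIs per library, limits genes of low level, and a p that missed the threshold does not show that a gene was equal between ages.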
